A study of Mus musculus with 9 samples.

Results

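Fkbp5, Zbtb16, Tsc22d3, Sgk1, Klf9 and Per1 are genes that both androgens and glucocorticoids are known to induce through their nuclear receptors. They were chosen by name for that property, with earlier results of these data known. All 6 were found by gene identifier among the 49585 genes of the files and all 6 passed the filter on low values that left 15867 genes for testing. The 9 RNA-seq libraries came from prostate basal cells of C57BL/6J mice, which had been sorted by flow cytometry and kept as organoids for 5 days, with 3 libraries in each of 3 media.

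RD7 organoids were grown with R-spondin1 at 500 ng/ml and dihydrotestosterone (DHT) at 100 nM. R organoids received R-spondin1 at 500 ng/ml without DHT, and BM organoids received neither. R-spondin1 is a secreted protein that raises the response of cells to Wnt ligands, and DHT is the most potent natural androgen. All groups shared the BM medium, with EGF at 50 ng/ml, Noggin, a BMP antagonist, at 100 ng/ml, A83-01, which blocks the type I receptors of TGF-β, at 200 nM, the ROCK inhibitor Y-27632 at 10 µM, and the supplement B27. B27 as commonly formulated contains corticosterone, a ligand of the glucocorticoid receptor in mice. The labels do not give its composition, and no group lacked it. There was no group with DHT but without R-spondin1, and none with an antagonist of either receptor. The age of the mice was not given. Nothing in the labels says whether replicate libraries stem from different mice or sorts, so p-values measure the spread between these samples, which may be technical.

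The nuclear receptors for these steroids are held by chaperones in the cytoplasm, enter the nucleus when they bind a steroid, and attach to nearly the same DNA palindrome, in which arms of the form AGAACA face each other across a gap of 3 bases. Genes near such sites can therefore be induced by either hormone, and in prostate androgens are the main regulators of secretory differentiation. Fkbp5 encodes a co-chaperone that lowers the affinity of the glucocorticoid receptor for its ligand and so forms a negative feedback loop. Zbtb16 encodes the zinc finger repressor PLZF, Klf9 a Krüppel-like transcription factor, Tsc22d3 the leucine zipper protein GILZ, Sgk1 a kinase that raises sodium channel and transporter activity, and Per1 a repressor in the circadian clock.

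The reads counted came to between 6505859 in BM 1 and 24141017 in BM 2. Levels are in FPKM as the authors deposited them, a unit that corrects read numbers for the length of the gene and the depth of the library. Means are given ± SD with n = 3 libraries in each group. Log2 fold changes, with their SE, refer to log2(FPKM + 0.5), a scale that understates the change of genes near or below 0.5 FPKM. Calls are by limma at an adjusted p under 0.05, with Benjamini-Hochberg adjustment over all 15867 tested genes. In these bulk samples, fewer cells of a type and less RNA per cell cannot be told apart. The summed FPKM of 10 basal markers lay between 8516 and 9553 in RD7, between 9948 and 10499 in R and between 7377 and 8283 in BM, so the markers of the labelled cell type were abundant in all groups. The summed FPKM of 9 luminal markers was 3789 to 4789 in RD7, 2712 to 3208 in R and 3441 to 4437 in BM.

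With DHT added on top of R-spondin1, 5 of the 6 genes rose. On the log2(FPKM + 0.5) scale Fkbp5 rose most (25.5-fold by mean FPKM), followed by Zbtb16, Sgk1 (5.45-fold), Klf9 (5.37-fold) and Tsc22d3 (4.16-fold), and Per1 was not called. The order of Fkbp5 and Zbtb16 depends on the value added to FPKM, here 0.5. With 0.1 added, Zbtb16 stood at 5.68 and Fkbp5 at 4.64. The depth-scaled read ratio was 1683 for Zbtb16, which had 1 read in R, and 25.6 for Fkbp5. The 5 of 6 genes called higher stand against 13.4% of all tested genes called higher between RD7 and R (17.7% were lower, 31.1% in either direction). All 6, Per1 included, had each RD7 library above each R library, which was so for 21.7% of tested genes. Zbtb16 would not have passed the filter on low values without its RD7 libraries, and leaving it out 4 of 5 genes rose. The median log2 fold change was 2.38 over the 6 genes and -0.09 over all tested genes.

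**Figure D1:**
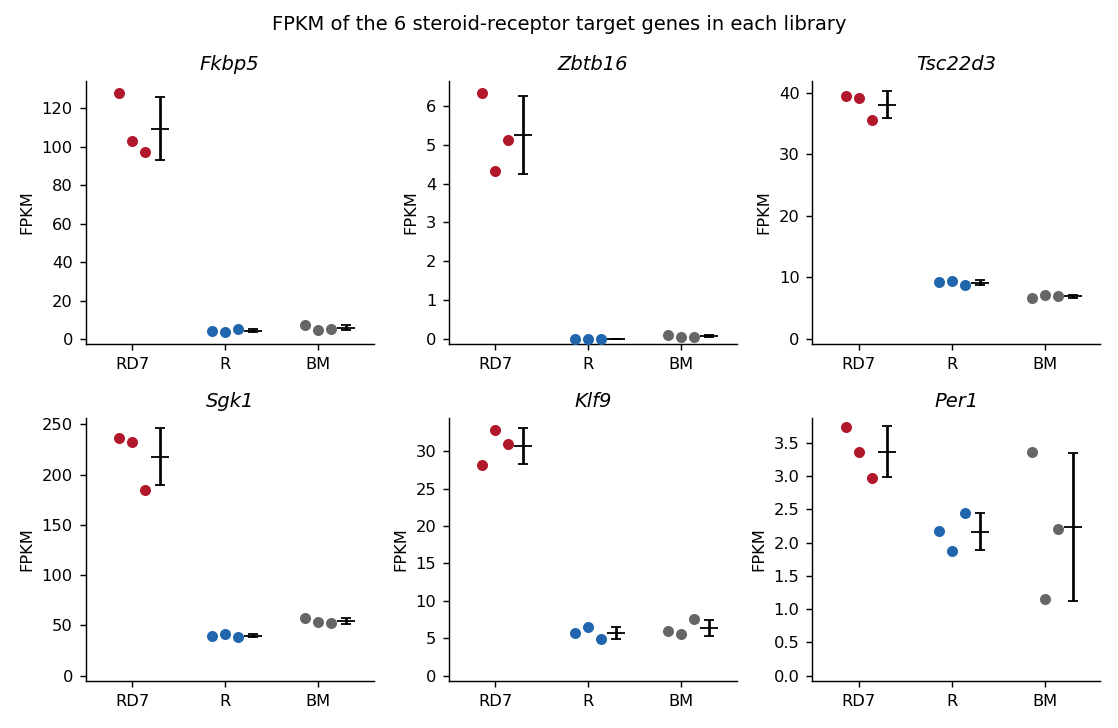
FPKM of the 6 genes (vertical axes from 0, a scale for each gene) in RD7, R and BM organoids. Each point is a library, and the bar beside the points is the mean ± SD of 3 libraries. Fkbp5 stands between 97.4 and 128 in RD7 and at or below 7.22 in the other 6 libraries, whereas the Per1 points of RD7 reach down to 2.97 and those of BM up to 3.36.

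Fkbp5 (chromosome 17, 28399094 to 28517527, minus strand, GRCm38) was at 128, 103 and 97.4 FPKM in RD7 1 to 3, against 4.22, 3.59 and 5.06 FPKM in R 1 to 3 and 7.22, 4.91 and 5.39 FPKM in BM 1 to 3. The RD7 libraries were all far above the other 6, and R and BM overlapped. The mean was 109 ± 16.3 FPKM in RD7 and 4.29 ± 0.737 in R, a log2 fold change of 4.52 ± 0.18 (limma adjusted p = 9.25e-08), which ranked 27 of 15867 genes from the top.

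Zbtb16 (chromosome 9, 48654297 to 48836222, minus strand) was at 6.32, 4.31 and 5.13 FPKM in RD7 1 to 3, from 597, 435 and 458 reads. In R it was listed at 0 in R 1 and R 2 and at 0.00874 FPKM in R 3, from 1 read, and in BM it was at 0.116, 0.0549 and 0.0579 FPKM, from 17 reads in all. The gene was thus near the limit of detection wherever DHT was absent. The RD7 libraries held 1490 reads in all against 1 in the R libraries, a depth-scaled ratio of 1683 with an exact 95% counting interval of 302 to 66523. The log2 fold change was 3.50 ± 0.15 (limma adjusted p = 9.6e-08), a value that depends on the pseudocount and was 5.68 at 0.1, 2.63 at 1 and 9.57 with limma-voom on reads. With so few reads in R the size of the change is poorly bounded, whereas its level in RD7, 5.25 ± 1.01 FPKM, exceeded that of 48.7% of tested genes.

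Klf9 (chromosome 19, 23141226 to 23168134, plus strand) was at 28.2, 32.9 and 31.0 FPKM in RD7 1 to 3, against 5.66, 6.54 and 4.95 FPKM in R 1 to 3 and 6.03, 5.57 and 7.52 FPKM in BM 1 to 3. R and BM overlapped, and RD7 lay above both in every library. The log2 fold change of RD7 over R was 2.33 ± 0.16 (limma adjusted p = 2.11e-06), from means of 30.7 ± 2.38 and 5.72 ± 0.793 FPKM.

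Tsc22d3 (chromosome X, 140539528 to 140600659, minus strand) was at 39.4, 39.2 and 35.6 FPKM in RD7 1 to 3, against 9.24, 9.45 and 8.72 FPKM in R 1 to 3 and 6.59, 7.18 and 6.98 FPKM in BM 1 to 3. It was the only 1 of the 6 with a stepwise order in which every RD7 library exceeded every R library and every R library exceeded every BM library. The step from DHT was a log2 fold change of 2.00 ± 0.12 (limma adjusted p = 7.78e-07), from means of 38.0 ± 2.15 FPKM in RD7 and 9.14 ± 0.374 in R. Its replicates were the tightest in RD7, with a coefficient of variation of 5.66%, against 19.2% for Zbtb16, the loosest of the 6 there.

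Sgk1 (chromosome 10, 21882184 to 21999903, plus strand) was at 236, 232 and 185 FPKM in RD7 1 to 3, against 39.5, 41.5 and 38.8 FPKM in R 1 to 3 and 57.4, 53.0 and 52.5 FPKM in BM 1 to 3. RD7 was highest and R lowest, with no overlap between any of the groups. It was the most abundant of the 6 in each medium. The mean was 218 ± 28.2 FPKM in RD7 and 40.0 ± 1.42 in R, a log2 fold change of 2.42 ± 0.13 (limma adjusted p = 4.19e-07).

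Per1 (chromosome 11, 69095217 to 69109960, plus strand) was at 3.74, 3.37 and 2.97 FPKM in RD7 1 to 3, against 2.17, 1.88 and 2.44 FPKM in R 1 to 3 and 3.36, 1.15 and 2.20 FPKM in BM 1 to 3. The RD7 libraries lay above the R libraries, but BM alone spanned nearly the range of both. The log2 fold change of RD7 over R was 0.54 ± 0.27 with a 95% interval of -0.06 to 1.13 (limma adjusted p = 0.151), which corresponds to a fold of 0.962 to 2.19 on the log2(FPKM + 0.5) scale. The SD was 0.384 FPKM in RD7, 0.279 in R and 1.11 in BM, where BM 2 (156 reads) and BM 1 (123 reads, from the shallowest library) had counting intervals of 0.9746 to 1.34 and 2.79 to 4.01 FPKM. In a fit of RD7 and R alone the same log2 fold change had an adjusted p of 0.0246, and it was 0.0434 without BM 2, so the call for Per1 depends on whether the BM libraries enter the estimate of the spread.

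**Figure D2:**
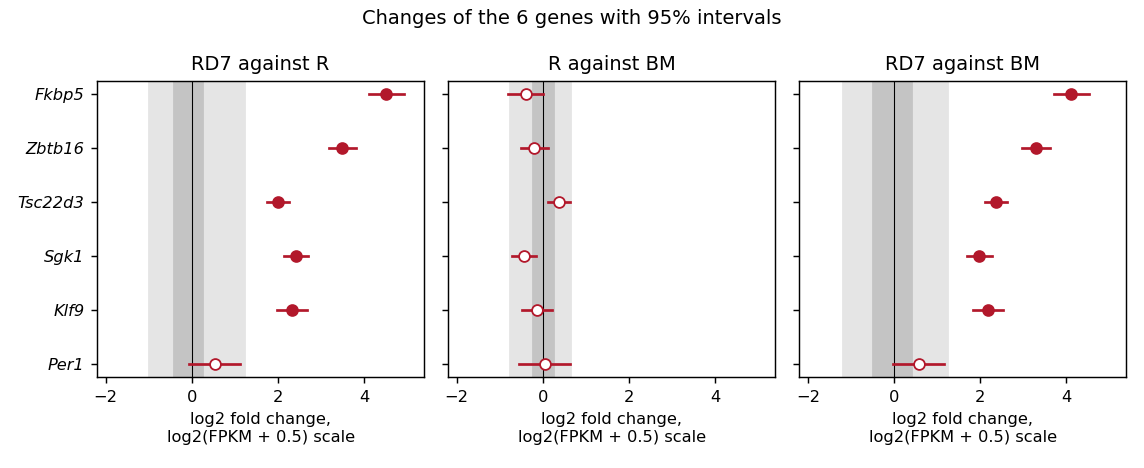
Log2 fold change of each of the 6 genes on the log2(FPKM + 0.5) scale in RD7 against R, R against BM and RD7 against BM, with 95% intervals as lines. Filled points were called by limma and open points were not, and the dark and light bands hold the middle 50% and 90% of all tested genes. The 5 filled points of RD7 against R lie between 2.00 and 4.52, and all points of R against BM lie between -0.44 and 0.38.

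None of the 6 genes was called between R and BM, the comparison for R-spondin1 without DHT, where 4.39% of tested genes were called higher and 5.64% lower, 10.0% in all. Of the 6, Tsc22d3 had its R libraries above its BM libraries without overlap (15.9% of tested genes did), Sgk1 and Zbtb16 had theirs below (14.4%), and Fkbp5, Klf9 and Per1 overlapped. Sgk1 was nearest to a call, with means of 40.0 ± 1.42 FPKM in R and 54.3 ± 2.71 in BM and a log2 fold change of -0.44 ± 0.13 (limma adjusted p = 0.0594). It was called lower without BM 3 (adjusted p = 0.0418) and without RD7 3 (0.0416). Tsc22d3 had means of 9.14 ± 0.374 FPKM in R and 6.91 ± 0.3003 in BM, with 0.38 ± 0.12 (limma adjusted p = 0.070), and was not called in any of 19 other settings. Zbtb16 had 1 read in R and 17 in BM, a depth-scaled ratio of 0.0486 with a counting interval of 0.00116 to 0.310. Its log2 fold change of -0.20 was not called (limma adjusted p = 0.414), and limma-voom on reads gave -3.38 (adjusted p = 0.0121). For Fkbp5 the log2 fold change was -0.40 (limma adjusted p = 0.198), for Klf9 -0.14 (0.584) and for Per1 0.04 (0.940).

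Against BM, which lacks both factors, RD7 showed the same 5 genes higher, where 21.6% of tested genes were called higher and 47.0% in either direction. For these 5 each RD7 library lay above each BM library, as it did for 23.1% of tested genes. That comparison shares its libraries with the other comparisons and is no separate evidence. The log2 fold changes were 4.12 for Fkbp5, 3.31 for Zbtb16, 2.38 for Tsc22d3, 2.19 for Klf9 and 1.99 for Sgk1, with limma adjusted p-values from 1.26e-07 to 3.73e-06. Per1 had 0.58 ± 0.27 (limma adjusted p = 0.0978), and its RD7 and BM libraries overlapped. Per1 was called without BM 1 (0.87, adjusted p = 0.0209), with limma-voom (0.84, 0.0375) and with the length trend removed (0.84, 0.0226). For Sgk1 the fold of RD7 was 4.01 over BM and 5.45 over R, and for Tsc22d3 it was 5.50 over BM and 4.16 over R.

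The order of the 6 genes by FPKM changed with DHT. In RD7 it ran from Sgk1 through Fkbp5, Tsc22d3, Klf9 and Zbtb16 to Per1, and in both R and BM from Sgk1 through Tsc22d3, Klf9, Fkbp5 and Per1 to Zbtb16. In RD7 every neighbouring pair in this order was separated in all libraries. In R, Klf9 (4.95 to 6.54 FPKM) and Fkbp5 (3.59 to 5.06) overlapped, and in BM Tsc22d3 (6.59 to 7.18), Klf9 (5.57 to 7.52) and Fkbp5 (4.91 to 7.22) all overlapped. Sgk1 exceeded 98.6% of tested genes in RD7, 88.8% in R and 92.5% in BM, and Fkbp5 exceeded 96.3%, 43.3% and 49.1%.

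Promoter windows of the genes are shown because the receptors bind a known palindrome and 5 of the 6 genes moved together. RefSeq windows (GRCm38.p6) reach from 250 bases before to 50 bases after a start site. Of the genes, 5 had entries, with 13 windows in all, 6 of them for Sgk1, 3 for Tsc22d3, 2 for Per1 and 1 each for Fkbp5 and Klf9. The table held no entry for Zbtb16. Capitals mark the palindrome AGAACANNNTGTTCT, its single arm (AGAACA, or TGTTCT on the other strand) and the E-box CACGTG, the element of clock transcription factors. In the Sgk1 window an E-box and a single arm share bases in the first capital run, and the second run is the palindrome.
Sgk1, chr10:21993640-21993939 (+): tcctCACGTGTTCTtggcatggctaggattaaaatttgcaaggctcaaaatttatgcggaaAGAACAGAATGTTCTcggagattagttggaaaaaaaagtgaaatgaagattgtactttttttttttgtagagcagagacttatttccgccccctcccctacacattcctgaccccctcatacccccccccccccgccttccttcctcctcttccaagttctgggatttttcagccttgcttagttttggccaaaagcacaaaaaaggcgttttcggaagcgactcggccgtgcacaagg
Fkbp5, chr17:28486100-28486399 (-): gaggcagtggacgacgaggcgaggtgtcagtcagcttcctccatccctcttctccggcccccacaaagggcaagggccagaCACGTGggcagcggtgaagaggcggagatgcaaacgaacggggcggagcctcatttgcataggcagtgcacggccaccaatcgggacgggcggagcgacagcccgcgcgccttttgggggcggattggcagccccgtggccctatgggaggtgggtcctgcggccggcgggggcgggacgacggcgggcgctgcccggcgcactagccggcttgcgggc
Per1, chr11:69098699-69098998 (+): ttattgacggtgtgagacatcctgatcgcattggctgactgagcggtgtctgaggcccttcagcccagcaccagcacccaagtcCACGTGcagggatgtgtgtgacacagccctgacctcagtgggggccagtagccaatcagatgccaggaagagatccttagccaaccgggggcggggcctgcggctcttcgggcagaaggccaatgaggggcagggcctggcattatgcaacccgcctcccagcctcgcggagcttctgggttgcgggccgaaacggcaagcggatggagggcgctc
Tsc22d3, chrX:140600473-140600772 (-): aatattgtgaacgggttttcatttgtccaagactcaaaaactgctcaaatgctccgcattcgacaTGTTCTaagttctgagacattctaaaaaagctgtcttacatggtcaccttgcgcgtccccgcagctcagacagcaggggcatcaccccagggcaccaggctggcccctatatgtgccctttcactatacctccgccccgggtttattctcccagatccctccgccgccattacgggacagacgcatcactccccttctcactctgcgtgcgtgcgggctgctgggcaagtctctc
The full palindrome was found in 3 of 32851 RefSeq windows (0.00913%), and the Sgk1 window printed above is 1 of these. The match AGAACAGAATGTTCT lies at chromosome 10, 21993701 to 21993715, from -189 to -175 relative to that start site, and ends 951 bases before the next start site downstream. The shorter core GNACANNNTGTNC, which lies within the palindrome, was in 156 windows (0.475%) and among the 13 windows only in the same one. The single arm on either strand, palindrome arms included, was in 19.0% of all windows and in 4 of the 13, namely 3 of Sgk1 and 1 of Tsc22d3. The E-box was in 7.15% of all windows and in 1 window each of Fkbp5, Per1 and Sgk1. The cyclic AMP response element TGACGTCA was in 1.79% of all windows and in none of the 13. A match describes the letters in these windows, and the search was on both strands and did not reach introns or distal regions.

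**Figure D3:**
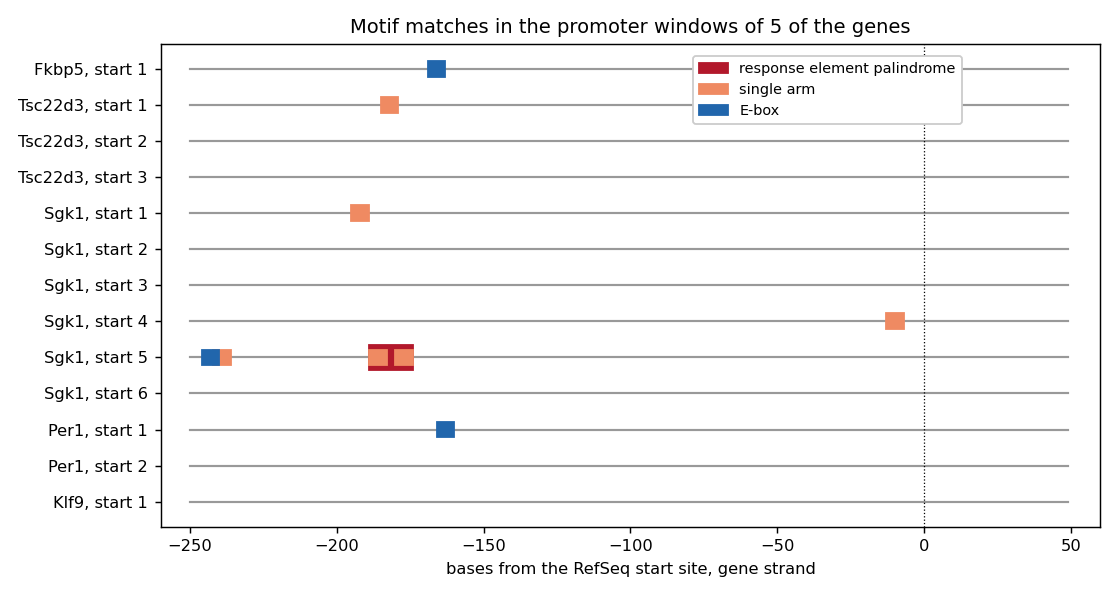
Positions of motif matches, in bases from the start site on the gene's strand, in the 13 promoter windows of 5 of the genes (grey lines, one per RefSeq start site). The palindrome, in the fifth Sgk1 window, spans -189 to -175 and holds a single arm at each end. The Klf9 window has no match.

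Closest in sequence to the 6 genes are their paralogs, which are not known as a group for steroid induction. In the Fkbp family, immunophilins that fold proteins at prolines, 3 of 13 tested genes rose between RD7 and R (13.4% of all tested genes), 1 fell (17.7%) and 9 were not called. Besides Fkbp5, the endoplasmic reticulum members Fkbp2 and Fkbp11 rose. Fkbp2 was at 66.0, 115 and 69.4 FPKM in RD7 1 to 3, against 29.5, 18.9 and 26.6 FPKM in R 1 to 3 (log2 fold change 1.70 ± 0.33, limma adjusted p = 0.00368). Fkbp11 was at 11.2, 20.2 and 11.2 FPKM in RD7 1 to 3, against 6.09, 4.18 and 4.30 FPKM in R 1 to 3 (1.42 ± 0.29, limma adjusted p = 0.00468). Both were highest in RD7 2, as was Klf9 but none of the other genes of the set. Fkbp9 fell by 0.50 on the log2 scale (25.2 ± 2.48 FPKM in RD7 and 35.8 ± 0.580 in R; limma adjusted p = 0.0131, and 0.0502 without R 3).

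Fkbp4, which encodes FKBP52, the co-chaperone that opposes the product of Fkbp5 on the glucocorticoid receptor, stood at 173 ± 10.9 FPKM in RD7, 200 ± 12.0 in R and 177 ± 5.10 in BM and was not called (RD7 against R -0.21 ± 0.11, limma adjusted p = 0.191). The mean level of Fkbp5 was below that of Fkbp4 in RD7, R and BM. The other 8 Fkbp genes tested lay between -0.36 (Fkbp10) and 0.35 (Fkbp8) in log2 fold change, and Fkbp6 was listed at 0 in all libraries and not tested.

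Of the other serum- and glucocorticoid-regulated kinases, Sgk3 was at 1.13 ± 0.135 FPKM in RD7 and 1.29 ± 0.199 in R and was not called, and Sgk2, near 0 throughout, was not tested. In the Tsc22d family, Tsc22d1 stood at 26.8 ± 1.85 FPKM in RD7 and 35.6 ± 3.57 in R (-0.40 ± 0.13, limma adjusted p = 0.0376), a call lost without any 1 of the 6 RD7 and R libraries (up to 0.150). Tsc22d2 (2.08 ± 0.643 and 3.605 ± 0.624 FPKM) and Tsc22d4 (18.3 ± 3.11 and 16.7 ± 0.260 FPKM) were not called. Per2, which like Per1 represses the clock, was at 0.840, 0.241 and 0.404 FPKM in RD7 1 to 3, against 1.09, 1.01 and 1.40 FPKM in R 1 to 3. It fell by 0.78 on the log2 scale with a limma adjusted p of 0.0273, which reached up to 0.0985 without R 1, R 2, R 3, RD7 2 or RD7 3. Its direction was the opposite of the measured difference of Per1, and Per3 (0.338 ± 0.187 and 0.645 ± 0.179 FPKM) was not called.

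Among 14 Krüppel-like factor genes tested, 4 were called higher and 1 lower between RD7 and R (13.4% and 17.7% of all tested genes). Klf9 had the largest fold, and Klf15, itself a glucocorticoid-induced gene in other tissues, rose to 8.04 ± 1.27 FPKM in RD7, against 4.19 ± 0.331 in R (0.85 ± 0.17, limma adjusted p = 0.00348). Klf15 was also higher in R than in BM, at 1.84 ± 0.316 FPKM (1.01 ± 0.17, limma adjusted p = 0.00288). Klf2 (2.34 ± 0.906 and 0.973 ± 0.368 FPKM, limma adjusted p = 0.0224) was not called without R 1, R 3, RD7 1 or RD7 2, and Klf4 (23.6 ± 3.68 and 16.1 ± 0.322, 0.0225) when RD7 2, RD7 3 or any R library was left out. Klf10, the gene called lower (30.8 ± 5.01 and 46.3 ± 3.78, 0.0205), was not called without R 2, R 3, RD7 2 or RD7 3. For these the adjusted p reached up to 0.0818, 0.0838 and 0.0806. The genes Klf1, Klf14 and Klf17 were not tested.

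**Figure D4:**
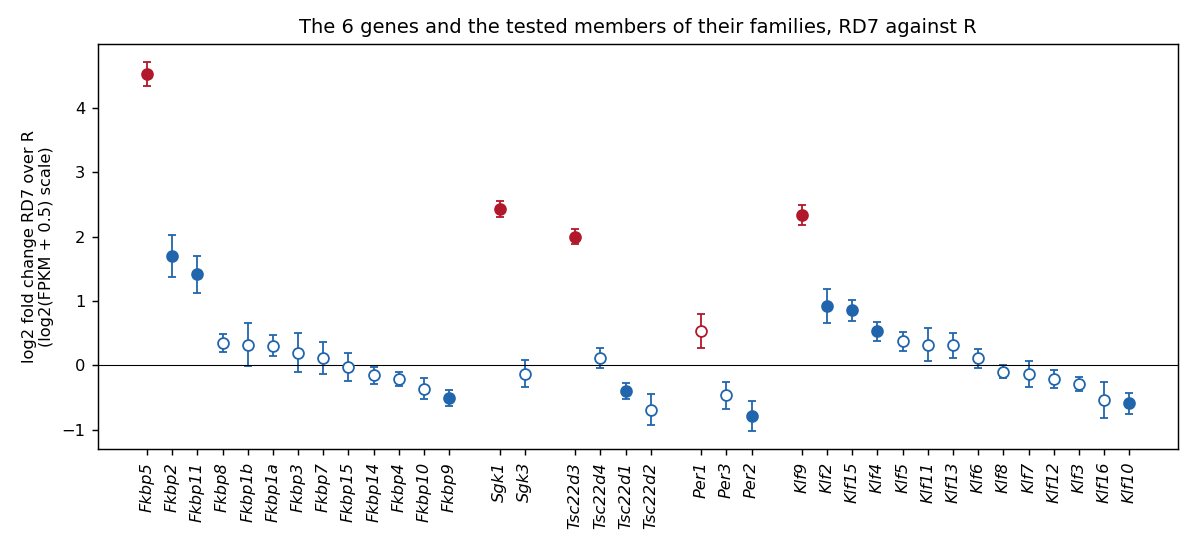
Log2 fold change of RD7 over R, log2(FPKM + 0.5) scale, for the tested members of the Fkbp, Sgk, Tsc22d, Per and Klf families, with SE bars. Red points are the genes of the set, blue points their paralogs, and filled points were called by limma. Of the paralogs, Fkbp2 at 1.70 and Fkbp11 at 1.42 lie highest, and Per2 at -0.78 lowest.

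Nr3c1, which encodes the glucocorticoid receptor, was at 3.37, 2.602 and 3.73 FPKM in RD7 1 to 3, against 4.55, 4.65 and 4.90 FPKM in R 1 to 3 and 5.49, 4.99 and 5.21 FPKM in BM 1 to 3. It fell by 0.49 on the log2 scale between RD7 and R (limma adjusted p = 0.0330). That call was lost without R 1, R 2, R 3 or RD7 2, with median-of-ratios scaling, with the replicate block and with the length trend removed (up to 0.141).

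Nr3c2, the mineralocorticoid receptor gene, was low, at 0.293 ± 0.111 FPKM in RD7, 0.134 ± 0.0817 in R and 0.563 ± 0.200 in BM, and was not called between RD7 and R (limma adjusted p = 0.164). Esr1, an estrogen receptor gene, fell to 1.22 ± 0.170 FPKM in RD7, against 2.71 ± 0.427 in R (-0.90 ± 0.19, limma adjusted p = 0.00606). Pgr, the progesterone receptor gene, had 3 reads in RD7, 11 in R and 26 in BM, and Esr2 had 1, 3 and 25, so neither was tested. Nr3c1 stood above Nr3c2 in every medium, with no overlap between the library values of these genes within a medium.

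Of 17 chaperones and co-chaperones of the receptors, none was called higher between RD7 and R (13.4% of all tested genes were), 2 were called lower (17.7%) and 15 were not called, with a median log2 fold change of -0.08. Those called lower were Hspa8 (263 ± 27.1 and 348 ± 10.2 FPKM, limma adjusted p = 0.0353) and Stip1 (147 ± 11.7 and 190 ± 8.18, 0.0391). Neither was called without R 1, R 2, R 3 or RD7 1, and the calls of Hspa8 without RD7 2 and of Stip1 without RD7 3 were also lost (up to 0.127 and 0.138). Of 12 genes listed as coregulators, Hoxb13, a prostate homeobox factor, rose to 246 ± 41.0 FPKM in RD7, against 43.0 ± 4.50 in R, and Gata2 rose to 3.243 ± 0.470 FPKM, against 0.789 ± 0.132. Grip1 fell, with an adjusted p of 0.0197, which reached 0.081 without R 1, R 3 or RD7 2, and 9 were not called. Grip1 here is the gene of glutamate receptor interacting protein 1 and not a steroid receptor coregulator. The coactivator also named GRIP1 is encoded by Ncoa2, which was not called (-0.38 ± 0.29, limma adjusted p = 0.345).

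Of 6 tested genes that set the supply of ligand, 1 was called higher and 1 lower between RD7 and R (13.4% and 17.7% of all tested genes). Abcb1b, a pump that exports steroids, fell to 0.389 ± 0.112 FPKM in RD7, against 1.08 ± 0.174 in R (-0.83 ± 0.17, limma adjusted p = 0.00420). H6pd, which supplies the cofactor of the enzyme that reactivates glucocorticoids, was at 12.0 ± 4.88 FPKM in RD7 and 6.48 ± 1.07 in R (limma adjusted p = 0.0436). Its call was lost when BM 1, RD7 1, RD7 3 or any R library was left out (up to 0.125). Abcb1a and Hsd11b1, the gene of that enzyme, were near 0 and were not tested.

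Other genes known as glucocorticoid-induced moved in both directions between RD7 and R. Of 30 tested, 13 were called higher (13.4% of all tested genes), 4 lower (17.7%) and 13 were not called, with a median log2 fold change of 0.39. The genes with the highest values were Lcn2, an iron-binding acute phase protein gene (587 ± 84.3 FPKM in RD7 and 84.6 ± 16.4 in R, 2.79 ± 0.30, limma adjusted p = 6.91e-05), and Rgs2, a G protein signaling regulator (25.3 ± 3.27 and 4.18 ± 0.356, 2.46 ± 0.19, 6.51e-06). They were followed by the metallothionein genes Mt1 (121 ± 39.7 and 24.9 ± 8.14) and Mt2 (144 ± 47.2 and 30.2 ± 8.55). All 4 held in the 19 other settings. Of the 13, 12 held in every other setting that tested them, which for Fam107a were 18. Fam107a, with 11 reads in R and 27 in BM, would not have passed the filter on low values without its RD7 libraries. The exception was Arrdc2, which was not called without R 1 or RD7 2 (up to 0.0732). The 4 lower genes, Per2, Slc19a2, Cebpb and Sox4, all lost their calls when RD7 3 or any R library was left out. So did Cebpb and Sox4 without RD7 1, and Per2, Slc19a2 and Sox4 without RD7 2 (up to 0.136). Dusp1 and Nfkbia, classical glucocorticoid-induced genes picked here after their values were seen, were not called, at 18.2 ± 1.18 and 174 ± 24.9 FPKM in RD7 and 14.6 ± 0.979 and 135 ± 19.8 FPKM in R (limma adjusted p = 0.0711 and 0.242). For both, each RD7 library lay above each R library, as for 21.7% of tested genes. Both were called higher in RD7 than in BM (0.46 and 1.17, limma adjusted p = 0.011 and 0.00287), as were 21.6% of tested genes. Nfkbia was already called higher in R than in BM, without DHT (0.81 ± 0.22, limma adjusted p = 0.0487), as were 4.39% of tested genes. Dusp1 was not called there (0.15 ± 0.12, 0.427).

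Of 24 other genes known as androgen-induced, 10 were called higher between RD7 and R (13.4% of all tested genes), 4 lower (17.7%) and 10 were not called, with a median log2 fold change of 0.10. Sbp, a prostate secretory protein gene, had the highest value (174 ± 15.1 FPKM in RD7 and 0.132 ± 0.0710 in R, 8.11 ± 0.15, limma adjusted p = 5.02e-10). With 12 reads in R and 2 in BM, Sbp would not have passed the filter on low values without its RD7 libraries. Azgp1 (14.97 ± 2.44 and 0.438 ± 0.187, 4.05 ± 0.25) and Mme (6.47 ± 0.708 and 0.0233 ± 0.0181, 3.73 ± 0.13) also rose. Fkbp5, at 4.52, thus stood below Sbp and above Azgp1 on that scale. Acsl3, a fatty acid activating enzyme gene, fell to 16.1 ± 1.64 FPKM, against 41.2 ± 2.33 in R (-1.34 ± 0.15, limma adjusted p = 0.000107), and Ndrg1 to 17.7 ± 2.00, against 34.5 ± 1.21. Camkk2 and Inpp4b were also called lower, but neither call held without any 1 of the RD7 and R libraries (up to 0.140 and 0.118).

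**Figure D5:**
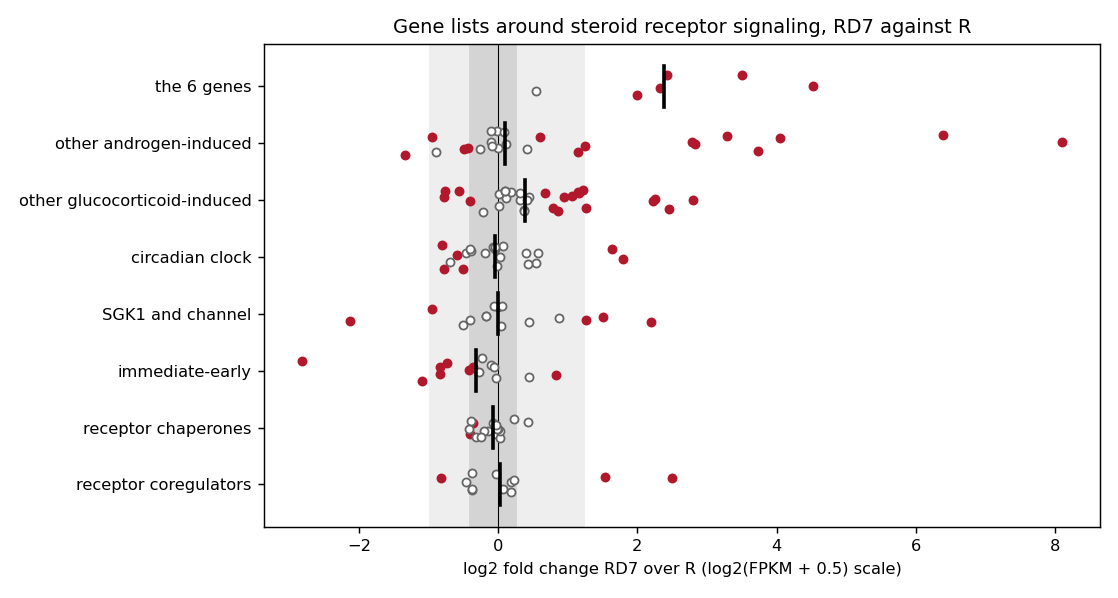
Log2 fold change of RD7 over R, log2(FPKM + 0.5) scale, for each tested gene of 8 lists (rows). Red points were called by limma, open points were not, black ticks are list medians, and the dark and light bands hold the middle 50% and 90% of all tested genes. The median of the 6 genes lies at 2.38, those of the other androgen- and glucocorticoid-induced lists at 0.10 and 0.39.

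Sgk1 acts on sodium and chloride transport, and of 15 genes of that pathway 3 rose and 2 fell between RD7 and R, each in all of the 19 other settings. Of all tested genes 13.4% were called higher and 17.7% lower. Ndrg2, which encodes a substrate of the SGK1 kinase, rose to 215 ± 13.3 FPKM in RD7, against 46.5 ± 3.95 in R (2.20 ± 0.12, limma adjusted p = 4.33e-07). The chloride cotransporter gene Slc12a2 rose to 181 ± 46.6 FPKM, against 62.6 ± 9.06. In BM Slc12a2 was at 127 ± 22.8 FPKM, and it was not called between RD7 and BM (limma adjusted p = 0.0855). The sodium channel subunits moved apart. Scnn1a, the alpha subunit, was at 8.99, 8.53 and 6.98 FPKM in RD7 1 to 3, against 3.50, 2.57 and 3.241 FPKM in R 1 to 3 (1.27 ± 0.18, limma adjusted p = 0.000453). Scnn1g, the gamma subunit, was at 0.897, 0.245 and 0.435 FPKM in RD7 1 to 3, against 3.73, 4.05 and 3.77 FPKM in R 1 to 3 (-2.13 ± 0.21, limma adjusted p = 5.02e-05). Scnn1b, the beta subunit, was at 4.62 ± 0.736 FPKM in RD7 and 4.62 ± 0.358 in R, with no call. Of the genes named in this paragraph Scnn1a also belongs to the glucocorticoid list, and Ndrg1, the other gene that fell, to the androgen list.

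Of 21 clock genes, Per1 included, 2 rose and 4 were called lower between RD7 and R, with a median log2 fold change of -0.05. Over all tested genes 13.4% were called higher and 17.7% lower. Nfil3, a repressor of clock output genes, rose to 46.6 ± 3.10 FPKM in RD7, against 13.1 ± 1.74 in R (1.79 ± 0.13, limma adjusted p = 5.28e-06). The calls of the 4 lower genes did not hold in every setting. Per2, Nr1d2 and Ciart lost their calls when RD7 3 or any R library was left out, Per2 and Nr1d2 also not without RD7 2, and Ciart also not without BM 1 or RD7 1 (up to 0.162), and Bhlhe40 had an adjusted p of 0.0514 with the length trend removed. Immediate-early genes, which serum and growth factors induce quickly, had 1 of 14 higher and 7 lower (13.4% and 17.7% of all tested genes), with a median of -0.32. Egr3 fell furthest, to 0.121 ± 0.0726 FPKM in RD7, against 3.95 ± 1.14 in R (-2.82 ± 0.22, limma adjusted p = 7.78e-06), and Fos fell to 8.51 ± 0.565, against 18.9 ± 1.99, while Atf3 rose to 5.24 ± 1.19, against 2.69 ± 0.380. The calls of Egr3, Fos, Jun, Egr1 and Atf3 held in all 19 other settings. The other 3 lower genes lost theirs, Fosb without any R library, RD7 2 or RD7 3, Ier3 without R 1, R 2, RD7 1 or RD7 2, and Myc without BM 1, BM 2, any R library, RD7 1 or RD7 3 (up to 0.141).

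The patterns of 5 of the genes over the 9 libraries were alike, as a description of libraries that share 3 media. Pearson correlations of log2(FPKM + 0.5) were 0.947 to 0.997 between any 2 of Fkbp5, Zbtb16, Tsc22d3, Sgk1 and Klf9, and 0.631 to 0.700 between Per1 and any of these. The tested genes most like Fkbp5 were Zbtb16 (r = 0.997), the actin-severing gelsolin gene Gsn (0.996) and Mme (0.995). Those most like Zbtb16 were 5430419D17Rik (0.998), the intermediate filament gene Synm (0.997) and Prrg3 (0.997). Those most like Tsc22d3 were Vsig8 (0.997), the defensin gene Defb1 (0.996) and Ndrg2 (0.996), and those most like Sgk1 were Chad (0.997), Lmo2 (0.996) and A4galt (0.995). Those most like Klf9 were the arginase gene Arg2 (0.997), Gpr20 (0.997) and Lrg1 (0.995). Between 636 and 796 tested genes had r over 0.9 with each of these 5. Per1 had 22 such genes, led by Gm16575 (0.968), Retreg3 (0.967) and the lysosomal saposin gene Psap (0.958), which also varied widely within BM.

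Markers of other cell types moved with the media, and their part in the changes of the 6 genes was not tested. Of 9 luminal markers 6 were called higher and 2 lower between RD7 and R (13.4% and 17.7% of all tested genes). Pbsn, among those called higher, had 2 reads in R and 0 in BM. It would not have passed the filter on low values without its RD7 libraries. None of the 10 basal markers was called higher and 3 were called lower, and Krt5, a basal keratin, stood at 2397 ± 91.9 FPKM in RD7, 3484 ± 58.9 in R and 2601 ± 305 in BM. The summed FPKM of 10 mesenchymal markers was 67.3 to 95.02 in RD7, 24.5 to 30.5 in R and 18.6 to 26.9 in BM. In RD7 and R most of it was Dcn (76.6 ± 14.1 and 21.9 ± 2.71 FPKM). In BM Dcn stood at 4.79 ± 1.27 FPKM, and most of the sum was Acta2, at 9.67, 11.3 and 16.3 FPKM in BM 1 to 3. Acta2 was at 0.973 to 1.53 FPKM in RD7. Dcn was the only mesenchymal marker called higher between RD7 and R, with 5 called lower. The 10 immune markers summed to 6.29 to 7.98 FPKM in RD7, 6.61 to 7.82 in R and 5.35 to 5.63 in BM, with Tyrobp at 0 in all libraries. The 6 endothelial markers summed to at most 0.555 FPKM and the 6 neuroendocrine markers to at most 0.985 FPKM in any library.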

How the data were processed

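The authors deposited FPKM for each gene and library. Per the submitters' processing notes, CASAVA 1.9, STAR 2.6.1a, featureCounts, edgeR 3.24.1 and GRCm38 were named without their roles. Per the labels, polyadenylated RNA was amplified with a SMART-Seq kit, a method without strand marks. The annotation release and any filters are not given in the sources used here. Symbols came from GENCODE M21 (259 identifiers did not match). Reads were read back as whole numbers within 0.01 read, with M21 exon lengths for 22971 of 26813 genes above 0 and fitted lengths for 3841, Fkbp5 and Klf9 among these, and at least 99.988% of reads were recovered. Intervals and floors of 3 reads cover counting error only, because reads without molecular identifiers are not independent molecules. No pair of libraries was identical.

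Genes that reached 0.5 CPM in 3 or more libraries entered the test, which was limma 3.58.1 (R 4.3.3) on log2(FPKM + 0.5), with 1 mean per group over all 9 libraries, trend and robust settings, 6 residual degrees of freedom and two-sided tests, after a check on simulated data. The count test held in reserve was not used, because the files hold FPKM. Motifs were searched and tables made in Python 3.11.15 with pandas 2.3.3. The 6 genes and all lists were chosen with earlier results of these data known. Genes named were the 6, the receptors, tested paralogs, up to 4 called genes in each direction per list, and the 3 most correlated genes for each of the 6. Some genes of these lists are not reported here. Other pseudocounts, filters, scalings, fits and each library left out were tried.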

Additional observations from a re-analysis of the deposited data

How the results depend on the processing

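The calls of Fkbp5, Zbtb16, Tsc22d3, Sgk1 and Klf9 in RD7 against R and RD7 against BM held in all 19 other settings, so that 5 or 6 of the 6 genes were called higher there. In RD7 against R, Per1 (0.54) was called with only RD7 and R in the fit and without BM 2, with log2 fold changes of 0.46 to 0.61 over single libraries left out. In RD7 against BM it was called with limma-voom (0.84), with the length trend removed (0.84) and without BM 1 (range 0.255 to 0.87). In R against BM its sign was reversed when BM 2 (-0.28) or R 3 (-0.03) was left out, and single libraries moved it between -0.28 and 0.33. There 1 gene was called lower with limma-voom (Zbtb16, -3.38) and without BM 3 or RD7 3 (Sgk1, range -0.47 to -0.40 over single libraries left out), so the number ranged from 0 to 1. The cause was not tested. Over all genes, RD7 against R had 2121 higher and 2816 lower (43.0% higher), and 2551 and 2169 (54.0%) with median-of-ratios scaling, 2648 and 2327 (53.2%) with the length trend removed, which set the median of all genes at -0.01 instead of -0.09. With single libraries left out it had 1403 to 2631 higher and 1710 to 3108 lower, R against BM 368 to 2089 and 559 to 1313, and RD7 against BM 2220 to 4076 and 2616 to 4443. Deviations from the group means had correlations of -0.521 to 0.272 between same-numbered libraries and -0.578 to 0.578 between differently numbered ones. With 3 libraries in each group these values cannot decide whether the numbers pair libraries by mouse or sort. With the replicate block, R against BM had 461 higher in place of 696 and 700 lower in place of 895, and the calls of the 6 genes did not change. Of the other values, 962 of 1119 kept their call and 157 lost it. BM 1, the shallowest library, limits low genes most: 0 reads there allow up to 0.461 CPM.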

Other observations

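The nearest tested gene on each side of the 6 genes was examined by position, a choice made after the data had been seen. Of these 12 neighbours, 2 were called higher between RD7 and R and 1 lower (13.4% and 17.7% of all tested genes), with a median log2 fold change of 0.06. E230001N04Rik rose to 1.39 ± 0.0851 FPKM in RD7, against 0.0711 ± 0.0617 in R (1.73 ± 0.17, limma adjusted p = 3.44e-05). Its near edge lies 5.19 kb from the upstream end of the annotated Fkbp5 span, at 28517527. The RefSeq start site of the Fkbp5 window printed above, 28486149, lies inside that span and farther from this neighbour. Gm5617, 158 kb from Zbtb16, rose to 6.17 ± 2.01 FPKM in RD7, against 1.56 ± 0.484 in R (1.68 ± 0.25, limma adjusted p = 0.00076). Alox12b, near Per1, was listed at 0 in the RD7 libraries and stood at 0.264 ± 0.0664 FPKM in R (limma adjusted p = 0.0138). The other 9, among them Tead3 and Vamp2, were not called. Because the libraries do not mark strand, reads that run past the end of a gene into a neighbour cannot be told apart from the neighbour's own.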
